A study of Mus musculus with 24 samples.

Results

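The response of wild-type mouse pups to high oxygen was compared gene by gene between the lung and the retina. Every gene that passed the low-count filter in both tissues was taken, which gave 15594 of the 35817 genes listed in both count tables and of the 36887 listed in either. A further 1158 genes were tested in lung alone and 3196 in retina alone, and 15869 passed in neither. The study set Gsdmd knockout mice, made by CRISPR on a C57/B6 background, beside their littermates in models of 2 diseases of preterm infants, bronchopulmonary dysplasia and retinopathy of prematurity. RNA of whole lung and of whole retina was sequenced in bulk, with no sorting of cells, from 3 mice a group. The wild-type (WT) littermates used here carry no deletion. For the lung, WT-O2 pups breathed 85% oxygen from postnatal day (P) 1 to P14 and WT-RA pups room air at 21%, and tissue was taken at P15, 1 day after the exposure. For the retina, WT-O2 pups were kept in 75% oxygen between P7 and P12 before room air, WT-RA pups stayed in room air, and tissue was taken at P18, 6 days after the return to room air. The age, the dose, the length of exposure and the delay therefore differed along with the tissue, and none of them can be told apart from it.

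High oxygen injures the growing lung through reactive oxygen species, DNA damage and the loss of capillaries. In the oxygen-induced retinopathy model, oxygen first stops vessel growth and prunes capillaries, and the return to room air leaves the inner retina hypoxic. Hypoxia-inducible factors (HIF) then raise VEGF and other signals, and new vessels sprout toward the vitreous. Apelin, adrenomedullin, angiopoietin-2 and placental growth factor are secreted signals of growing vessels, and their receptors lie mainly on endothelial cells.

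Promoters of 4 genes on which the comparison turns are shown, each from 250 bases before to 50 after the transcription start, 5′ to 3′ on the gene's strand, from RefSeq on GRCm38.p6. Capitals mark the core letters ACGTG and GCGTG of the hypoxia response element, searched on both strands (CACGT and CACGC on the other). Adm and Egln3 are shown because they rose in both tissues and belong to the HIF list, and Esm1 and Cxcr4 because they fell in lung and rose in retina. The windows lie at chr7:110627407-110627706 on the plus strand for Adm, chr12:54203825-54204124 on the minus strand for Egln3, chr13:113209409-113209708 on the plus strand for Esm1 and chr1:128592250-128592549 on the minus strand for Cxcr4.
Adm: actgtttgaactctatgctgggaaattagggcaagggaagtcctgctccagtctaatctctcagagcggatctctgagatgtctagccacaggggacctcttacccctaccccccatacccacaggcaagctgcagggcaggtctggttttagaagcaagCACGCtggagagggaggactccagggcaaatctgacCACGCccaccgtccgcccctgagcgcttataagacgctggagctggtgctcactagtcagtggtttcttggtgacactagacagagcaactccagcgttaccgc
Egln3: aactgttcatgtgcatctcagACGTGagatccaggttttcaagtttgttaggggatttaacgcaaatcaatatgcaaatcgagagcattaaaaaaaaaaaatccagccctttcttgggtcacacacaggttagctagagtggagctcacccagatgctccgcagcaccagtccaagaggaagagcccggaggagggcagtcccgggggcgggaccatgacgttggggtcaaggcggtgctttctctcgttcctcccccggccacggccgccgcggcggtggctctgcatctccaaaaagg
Esm1: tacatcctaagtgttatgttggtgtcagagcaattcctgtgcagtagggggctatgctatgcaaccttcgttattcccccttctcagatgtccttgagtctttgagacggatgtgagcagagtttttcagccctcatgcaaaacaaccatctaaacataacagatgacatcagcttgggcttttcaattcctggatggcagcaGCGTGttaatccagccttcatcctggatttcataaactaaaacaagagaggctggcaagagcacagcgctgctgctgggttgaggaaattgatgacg
Cxcr4: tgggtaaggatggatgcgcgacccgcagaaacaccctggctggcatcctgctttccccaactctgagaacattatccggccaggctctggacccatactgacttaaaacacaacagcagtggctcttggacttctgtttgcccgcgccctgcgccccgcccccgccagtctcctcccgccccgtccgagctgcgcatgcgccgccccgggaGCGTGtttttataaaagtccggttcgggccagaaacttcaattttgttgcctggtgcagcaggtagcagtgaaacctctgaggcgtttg

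Adm held 2 matches, at -90 and -54 from the start, Egln3 held 1 at -229, Esm1 held 1 at -47 and Cxcr4 held 1 at -39. The core letters were present in 43.8% of all 32851 promoters in the table and in 58.6% of the 14878 promoters of genes tested in both tissues. Among the genes called higher in both tissues, 40 of 54 had a promoter in the table, and 22 of their 50 promoters (44%) held the core. Among the genes lower in lung and higher in retina, 15 of 27 had one, and 10 of their 20 promoters (50%) held it. Neither share was above that of the tested genes. In the HIF list 38 of 48 promoters (79.2%) held the core. A match is a description of the letters in the window and not evidence of binding.

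Depth was even. Total estimated counts ran from 28763661 to 29489506 in the 6 WT lung libraries and from 24863257 to 29093035 in the 6 WT retina libraries. Marker lists matched the tissues, as far as tables summarised separately allow: 14 lung epithelial genes summed to 26107 to 38519 CPM (counts scaled to a common library size) in lung and to at most 70.0 in retina, and 18 photoreceptor genes to 64483 to 81618 in retina and at most 19.4 in lung. The retina WT-RA libraries stood apart in 2 ways that bear on every retina value below. First, 20 lens genes made up 0.0111%, 4.47% and 11.7% of replicates 1, 2 and 3 of WT-RA but at most 0.00221% of any WT-O2 retina. Second, Y-linked genes were expressed in 3 of 3 WT-RA retinas and 1 of 3 WT-O2 retinas (0 of 3 and 1 of 3 in lung). Class counts and many list counts are therefore given also without the 2 lens-rich libraries and with lens level or sex as a covariate. These alternatives were chosen after seeing the data. Leaving out the 2 lens-rich libraries kept only replicate 1 of WT-RA retina, so a call could also be lost for want of replicates. Lens level was higher in every WT-RA than in every WT-O2 retina, so that covariate partly stood for the exposure. For single genes they are not always stated, so a gene named without them did not necessarily keep its call. Each library came from its own mouse, so p-values measure the spread between these mice. In whole tissue, fewer cells of a type and less RNA per cell cannot be told apart.

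A gene was called when edgeR's quasi-likelihood test gave it a Benjamini-Hochberg adjusted p under 0.1 with a raw p under 0.05, and its level differed at least 2.0-fold. In lung, 698 of the 15594 genes (4.48%) were called higher in WT-O2 and 856 (5.49%) lower. In retina, 310 (1.99%) were called higher and 30 (0.192%) lower. The lung response was thus larger in number and split nearly evenly, while 310 of the 340 retina calls were increases. Precision differed as well: the median standard error (SE) of a log2 fold change was 0.122 in lung and 0.166 in retina, and 49.3% of genes in lung and 18.5% in retina had an unadjusted p under 0.05. A gene called in lung and not in retina is therefore described as differing between tissues only where the difference itself, fitted over all 24 libraries, was called.

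Across all genes the responses had little in common. Across genes, which are not independent replicates, Pearson's r between the lung and retina log2 fold changes was 0.055 and Spearman's rho was -0.028. Genes called higher in lung had a median log2 fold change of 0.01 in retina, with 50.1% above 0, which is the share of all genes. Genes called higher in retina had a median of 0.18 in lung, with 58.1% above 0 beside 49.8% of all genes. The difference between the responses was called for 750 genes (4.81%) in which the lung response lay above that of retina and for 1329 genes (8.52%) in which it lay below. Both tissues had a call in the same direction for 61 genes, 54 higher in both (0.346% of the genes tested) and 7 lower in both, and in opposite directions for 31 genes, 27 lower in lung and higher in retina (0.173%) and 4 the reverse. The 54 genes were 7.74% of the lung-higher and 17.4% of the retina-higher genes, and the 27 were 3.15% of the lung-lower and 8.71% of the retina-higher genes. Of the remaining called genes, 438 were higher and 600 lower in lung only with a called difference, and 180 were higher and 13 lower in retina only. For 202 genes higher and 222 lower in lung, and for 49 higher and 6 lower in retina, the other tissue was not called and neither was the difference. The 13792 genes called in neither tissue were 88.4% of all.

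**Figure D1:**
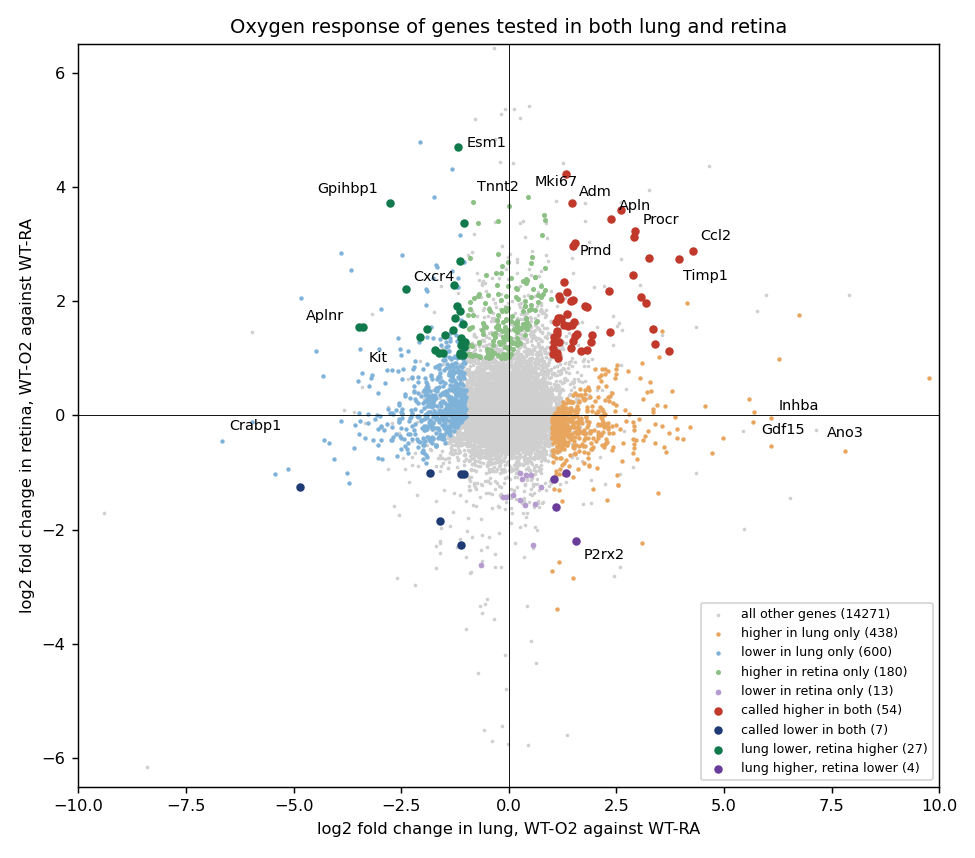
Each point is 1 of the genes tested in both tissues, with its log2 fold change (WT-O2 over WT-RA) in lung on the x axis and in retina on the y axis, coloured by class. Most called genes lie along one axis. The 54 genes higher in both belong in the upper right, the 27 lower in lung and higher in retina in the upper left. In all, 27 genes outside the axis limits are not drawn, among them Sprr1a of the 54.

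Among the 54 genes higher in both tissues, those with the largest changes in the tissue where they rose less (and a mean of at least 1 CPM in each tissue) are given first. Procr (ENSMUSG00000027611), the endothelial protein C receptor, stood at 2.69, 3.33 and 3.3 CPM in the lung WT-RA libraries and at 19.8, 20.1 and 31.8 in WT-O2, a log2 fold change of 2.94 ± 0.23 (SE, n = 3 a group, edgeR adjusted p = 3.38e-07). In retina it stood at 0.2, 0.381 and 0.428 CPM against 4.27, 3.43 and 1.87 (3.23 ± 0.40, edgeR adjusted p = 0.00268). By that rule the groups did not overlap in either tissue, and the responses differed by -0.31 ± 0.42 (lung minus retina), which was not called. Prnd (ENSMUSG00000027338), a prion-like surface protein of growing endothelium, was at 2.51, 2.76 and 3.23 CPM against 15.1, 22.7 and 26.0 in lung (2.91 ± 0.34, edgeR adjusted p = 4.83e-05). In retina it was at 1.2, 0.724 and 2.48 against 15, 13.1 and 10.6 (3.13 ± 0.40, edgeR adjusted p = 0.00294). Every WT-O2 library lay above every WT-RA library in both tissues. Cd109, a surface co-receptor that restrains TGF-beta, rose by 3.26 ± 0.15 in lung, from 2.65 to 4.06 CPM in WT-RA to 29.5 to 37.3 in WT-O2. In retina it rose by 2.75 ± 0.47, from 0.191 to 0.6 CPM to 2.21 to 2.66 (edgeR adjusted p = 1.79e-09 and 0.0133).

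Timp1, an inhibitor of matrix metalloproteases, was at 2.37, 3.23 and 4.47 CPM in lung WT-RA and 40.4, 61.1 and 55.7 in WT-O2 (3.96 ± 0.20, edgeR adjusted p = 8.77e-09). Its retina levels were 0.96, 2.21 and 1.84 CPM against 5.23, 17.8 and 10.6 (2.74 ± 0.46, edgeR adjusted p = 0.012). Its lung response exceeded that of retina by 1.19 ± 0.49 (edgeR adjusted p = 0.0793). That difference was 0.40 and not called without the 2 lens-rich WT-RA retinas. Leaving out lung WT-RA replicate 1 or 2, lung WT-O2 replicate 2 or 3, retina WT-O2 replicate 1 or 3 or retina WT-RA replicate 2 or 3 also ended that call, at 0.86 to 1.17. Ccl2, the main monocyte-attracting chemokine, rose by 4.29 ± 0.23 in lung, where its highest WT-RA library was at 0.998 CPM and its lowest WT-O2 library at 12.6. The retina libraries stood at 0.2, 0.61 and 0.428 CPM against 2.0, 4.9 and 2.28 (2.88 ± 0.81, edgeR adjusted p = 0.0914), a call that leaving out any retina library ended, at 2.36 to 3.27. Serpina3n, an acute-phase protease inhibitor made by reactive astrocytes, was at 96.4, 76.9 and 21.3 CPM against 336, 391 and 459 in lung (2.61 ± 0.48). In retina it was at 2.4, 1.11 and 8.87 against 22.7, 65.3 and 61.1 (3.60 ± 0.96, edgeR adjusted p = 0.0913). The retina call of Serpina3n was lost, at 3.15 to 3.95, when any retina library except WT-RA replicate 3 was left out. Plau, the urokinase that starts plasmin-driven matrix breakdown, rose by 2.32 ± 0.16 in lung and 2.17 ± 0.49 in retina. Leaving out replicate 1 or 2 of either retina group ended its retina call, at 1.87 to 2.14. Ccl2 and Serpina3n were also no longer called in both tissues without the 2 lens-rich libraries or with either covariate. The same held for Plau with either covariate.

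Ligands of the vessel-growth pathways were among the genes higher in both. Apln (ENSMUSG00000037010), which encodes the ligand apelin, was at 102, 91.0 and 85.5 CPM in lung WT-RA and 411, 523 and 519 in WT-O2 (2.38 ± 0.16, edgeR adjusted p = 1.06e-07). Its retina levels were 5.52, 3.7 and 8.09 CPM against 59.9, 80.0 and 46.9 (3.44 ± 0.28, edgeR adjusted p = 0.000729). The rise was larger in retina by 1.08 ± 0.31 on the log2 scale (the difference lung minus retina was -1.08, edgeR adjusted p = 0.0151), a difference that fell to or below the 2.0-fold limit without lung WT-RA replicate 1 (-1.0), lung WT-O2 replicate 1 (-0.97), retina WT-O2 replicate 2 (-0.83) or retina WT-RA replicate 2 (-0.83). Adm (ENSMUSG00000030790), the vasodilator adrenomedullin whose promoter is shown above, was at 15.5, 25.3 and 21.5 CPM against 43.5, 41.4 and 88.0 in lung (1.47 ± 0.33). The retina libraries stood at 2.12, 1.91 and 1.63 against 23.8, 29.2 and 21.5 (3.72 ± 0.25), and the difference of -2.26 ± 0.43 was called (edgeR adjusted p = 0.000604). Adm rose in both tissues, without overlap, and more in retina. Angpt2, the ligand that loosens mature vessels, rose by 1.77 ± 0.11 in lung and 1.91 ± 0.30 in retina, and Pgf, placental growth factor, by 3.06 ± 0.38 and 2.08 ± 0.36. For Angpt2 the retina call was lost, at 1.69, without the 2 lens-rich libraries. Egln3, an oxygen-sensing prolyl hydroxylase that is itself a HIF target, rose by 1.19 ± 0.27 and 1.70 ± 0.22.

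The other genes higher in both included the 3 chains of C1q, the first component of complement made by macrophages and microglia. C1qb was at 39.5, 48.6 and 36.8 CPM against 82.5, 88.0 and 99.1 in lung (1.11 ± 0.12) and at 14.9, 7.59 and 16 against 31.2, 28.3 and 43.5 in retina (1.42 ± 0.27, edgeR adjusted p = 0.0196). The retina call for C1qb was lost with the lens covariate, at 1.37. C1qa, C1qc and the lysosomal macrophage protein Cd68 rose by 1.03 to 1.12 in lung and 1.08 to 1.18 in retina, and were no longer called in both tissues under 5, 7 and 8 of 19 other settings. Trem2, a lipid-sensing receptor of macrophages and microglia, rose by 1.59 ± 0.15 in lung and 1.43 ± 0.40 in retina (edgeR adjusted p = 0.0876). The retina call for Trem2 was lost, at 1.10 to 1.65, without any retina library except WT-RA replicate 3. Trem2 was also not called in both tissues without the 2 lens-rich libraries or with either covariate. Matrix genes rose as well: Fn1, fibronectin, by 1.52 ± 0.14 and 1.63 ± 0.22, Col5a2 by 1.17 ± 0.11 and 2.09 ± 0.34, and Col5a3 by 3.40 ± 0.18 and 1.25 ± 0.22 (lung first). The stress-induced transcription factor Atf3 rose by 1.46 ± 0.40 and 1.59 ± 0.24. Of the 54 genes, 16 stayed called in both tissues under all 19 of these settings, which varied samples, covariates, normalization, filter or tool. These were Adm, Apln, Atf3, Cd109, Col5a2, Col5a3, Egln3, Fn1, Fxyd5, Lad1, Litaf, Pgf, Prnd, Procr, Timp1 and Vwa1. The remainder lost a call in 1 or more settings, mostly in retina, and 21 of the 54 were still called in both without the 2 lens-rich libraries, 20 with the lens covariate and 28 with the sex covariate.

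**Figure D2:**
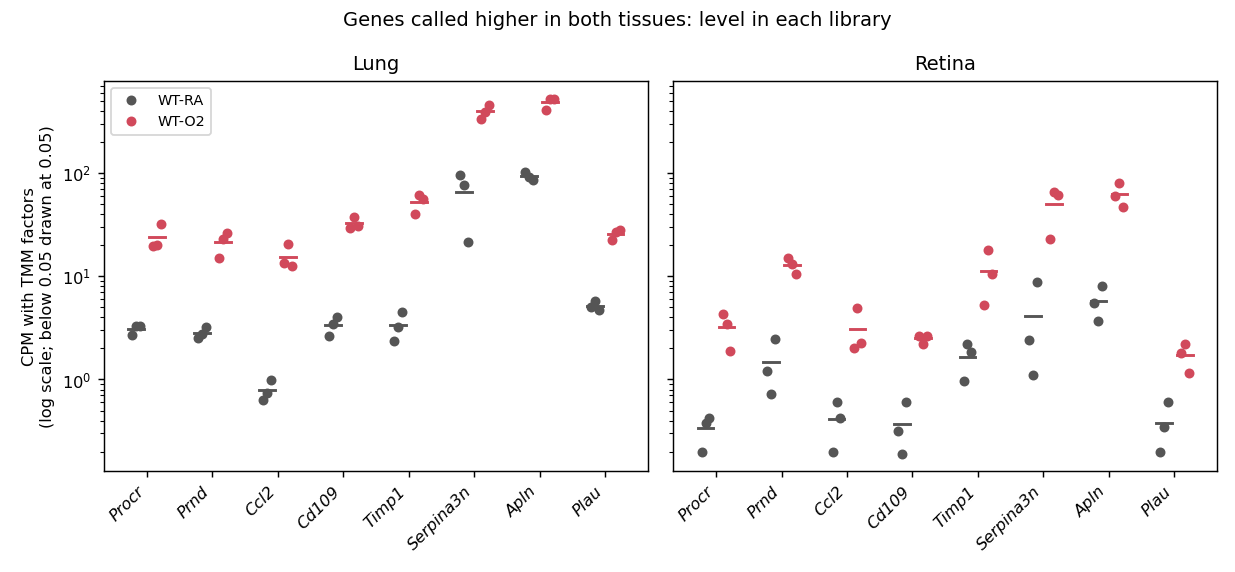
Points are single libraries of the genes named as higher in both tissues, on a log10 axis of CPM, with WT-RA and WT-O2 side by side for lung and for retina and a bar at the group mean. The WT-O2 libraries lie above the WT-RA libraries in both tissues for each gene drawn, which the naming rule required.

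The Gsdmd knockout mice of the same study give these genes a second reading in other animals, though the fit shares its estimate of spread with the WT groups. In the knockouts 621 genes (3.98%) were called higher and 786 (5.04%) lower in lung, and 269 (1.73%) higher and 65 (0.417%) lower in retina. Of the 54 genes, 43 were called higher in knockout lung, 29 in knockout retina and 25 in both, and all 54 had the same sign in each tissue. Of the 27 genes lower in lung and higher in retina, 15 were called in the same direction in knockout lung, 14 in knockout retina and 9 in both, with the same sign in 27 and 26. Lens genes made up 7.79% of 1 of the 3 knockout room-air retinas. Y-linked genes were expressed in 3 of 3 knockout room-air retinas and 1 of 3 oxygen-exposed ones, the same imbalance as in WT retina. In knockout lung the counts were 2 of 3 and 3 of 3. The share of all tested genes with the same sign was not counted.

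The 27 genes that fell in lung and rose in retina included receptors and secreted proteins of endothelial cells. Aplnr (ENSMUSG00000044338), the receptor of apelin, stood at 205, 235 and 244 CPM in lung WT-RA and at 26.2, 23.0 and 16.7 in WT-O2 (-3.38 ± 0.22, edgeR adjusted p = 4.61e-07). In retina it stood at 2.64, 1.72 and 5.27 CPM against 10.4, 8.54 and 9.02 (1.54 ± 0.34, edgeR adjusted p = 0.039). Ligand and receptor thus moved apart in lung and together in retina, and the receptor's responses differed by -4.95 ± 0.39 (edgeR adjusted p = 2.1e-08). The retina call for Aplnr was lost without WT-O2 replicate 1 (1.45), WT-RA replicate 1 (1.42) or WT-RA replicate 2 (1.24) and with either covariate. Cxcr4 (ENSMUSG00000045382), the receptor of the chemokine CXCL12, was at 106, 93.9 and 119.5 CPM against 15.3, 20.5 and 25 in lung (-2.39 ± 0.20). In retina it was at 2.52, 1.64 and 4.45 against 15.8, 12.1 and 12.2 (2.22 ± 0.36, edgeR adjusted p = 0.00913), and the retina call was lost with the lens covariate, at 2.16. Esm1 (ENSMUSG00000042379), a proteoglycan secreted by the tip cells that lead vessel sprouts, was at 16.5, 8.01 and 6.29 CPM against 4.74, 4.68 and 4.05 in lung (-1.19 ± 0.31). Its retina levels were 0.16, 0.0762 and 0.428 against 5.54, 6.92 and 4.9 (4.70 ± 0.73, edgeR adjusted p = 0.00779). The lung fall rested on WT-RA replicate 1, without which it was -0.67 and not called, whereas the retina rise kept its call in every setting and the difference of -5.93 ± 0.69 was called.

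Clec14a, an endothelial lectin-like receptor, was at 341, 319 and 293 CPM against 103, 83.8 and 69.2 in lung (-1.90 ± 0.15) and at 1.24, 1.07 and 2.18 against 4.46, 3.96 and 4.42 in retina (1.52 ± 0.26). Sox18, a transcription factor of developing endothelium, was at 220.3, 205 and 346 CPM against 100.4 to 111 in lung (-1.29 ± 0.19) and at 12.9, 10.1 and 10.8 against 37.3, 28.8 and 28.7 in retina (1.49 ± 0.21). By the naming rule neither gene overlapped between groups in either tissue. With Lrrc2 they were the 3 of 27 that kept both calls in every setting. Gja4, the arterial gap-junction protein connexin 37, fell by 2.06 ± 0.28 in lung and rose by 1.37 ± 0.23 in retina, the latter not called (1.31) without the 2 lens-rich libraries. Adora2a, a receptor of adenosine, fell by 1.21 ± 0.17 and rose by 1.92 ± 0.35, with the retina call lost without those libraries (1.78) and with the lens covariate (1.85). Gpihbp1, which anchors lipoprotein lipase on capillaries, fell from 159.7 to 197 CPM to 22.8 to 30.1 in lung (-2.77 ± 0.27). The retina libraries stood at 0.0, 0.229 and 1.03 CPM against 8.5, 3.65 and 4.22 (3.71 ± 1.03, edgeR adjusted p = 0.0924). Leaving out any retina library but WT-RA replicate 3 ended the call, at 3.12 to 3.93. Gpihbp1 also left the class with either covariate. Without the 2 lens-rich libraries 17 of the 27 genes remained in this class, with the lens covariate 10 and with the sex covariate 15.

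**Figure D3:**
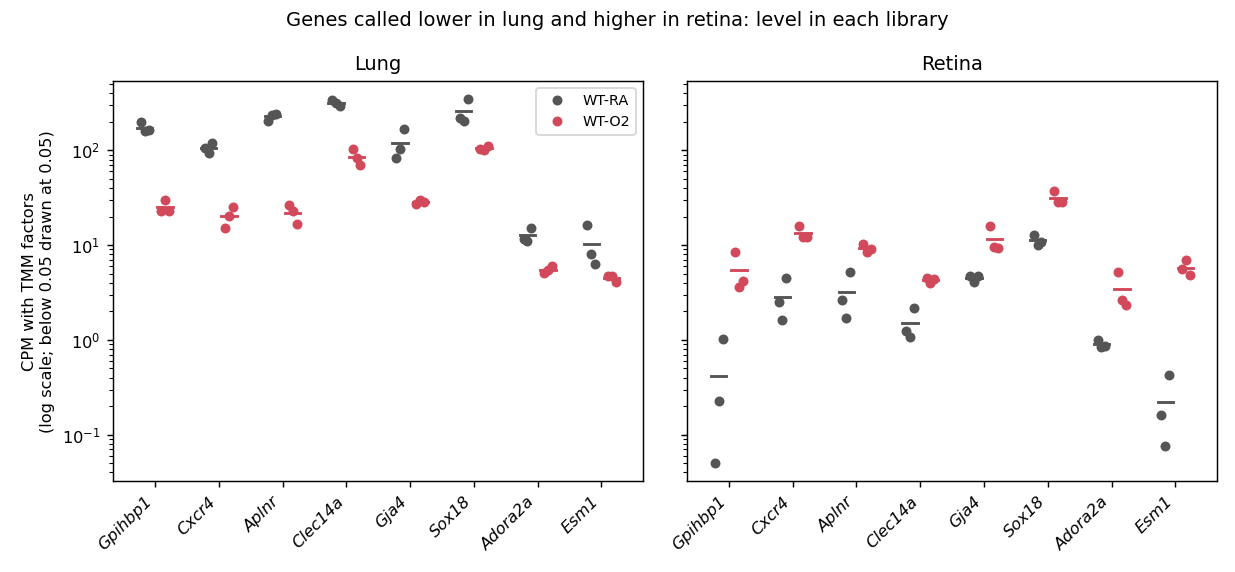
Points are single libraries of 8 genes called lower in lung and higher in retina, on a log10 axis of CPM, with WT-RA and WT-O2 side by side for lung and for retina and a bar at the group mean. For each gene the WT-O2 libraries lie below the WT-RA libraries in lung and above them in retina, which the naming rule required. Levels below 0.05 CPM are drawn at 0.05.

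The reverse class held 4 genes, P2rx2, Tmem190, Lgi2 and Guca1a. P2rx2, an ATP-gated ion channel, was at 1.64, 1.92 and 1.62 CPM against 4.57, 5.57 and 5.24 in lung (1.57 ± 0.21) and at 11.8, 9.95 and 8.05 against 2.66, 1.96 and 1.87 in retina (-2.20 ± 0.21, edgeR adjusted p = 0.00104). P2rx2 was the 1 gene of the 4 that kept both calls in every setting. Guca1a, a calcium sensor of photoreceptors, was at 564, 487 and 344 CPM against 242, 208 and 242 in retina (-1.01 ± 0.17), and at most 1.55 CPM in any lung library. Its retina call was lost without WT-O2 replicate 2 (-0.94), WT-RA replicate 1 (-0.85) or WT-RA replicate 2 (-0.98). Lgi2, a secreted neuronal protein, changed by 1.05 ± 0.18 and -1.12 ± 0.23 (lung first). Its lung call was lost without WT-RA replicate 1 (0.90) or WT-O2 replicate 1 (0.92). Its retina call was lost without WT-O2 replicate 1 or 3 or WT-RA replicate 3 (-0.92 to -1.09). Lgi2 also left the class without the 2 lens-rich libraries and with the lens covariate. Tmem190 changed by 1.10 ± 0.30 and -1.60 ± 0.43. Its lung call was lost without WT-RA replicate 3 (0.89) or WT-O2 replicate 1 (0.90). Its retina call was lost without replicate 1 or 2 of WT-O2 or 2 or 3 of WT-RA (-1.22 to -1.66). Tmem190 also left the class without the 2 lens-rich libraries, with either covariate and with WT libraries only. In knockout retina Tmem190 had 0.34 and was not called.

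The 7 genes lower in both were Cacna2d3, Capn3, Cpne7, Fam107a, Glb1l3, Gm28438 and Ipcef1, and none of them kept both calls in all 19 settings. Fam107a, whose lung groups overlapped, fell by 1.59 ± 0.49 in lung and 1.84 ± 0.32 in retina. It left the class only without lung WT-RA replicate 1. Cacna2d3, an auxiliary subunit of calcium channels, was at 115, 113 and 99.2 CPM against 58.0, 52.8 and 52.1 in retina (-1.01 ± 0.10) and fell by 1.82 ± 0.33 in lung. Without WT-O2 replicate 2 or 3 or WT-RA replicate 1 or 2 its retina value was -0.97 to -0.99, under the 2.0-fold limit. Glb1l3 fell by 4.86 ± 0.34 in lung and 1.25 ± 0.29 in retina, the latter lost without WT-O2 replicate 1 or 3 or WT-RA replicate 1 or 2 (-1.08 to -1.31). Ipcef1 fell by 1.04 ± 0.24 and 1.03 ± 0.30 (retina edgeR adjusted p = 0.0996), with the retina call lost without any single library (-0.95 to -1.11) and the lung call without WT-RA replicate 1 (-0.81) or WT-O2 replicate 2 (-0.96). Gm28438 is a near-identical nuclear copy of a mitochondrial gene whose reads may be split, so its fall (-6.83 ± 1.46 and -10.51 ± 1.66) is uncertain. Capn3 and Cpne7 left the class under 12 and 10 of the 19 settings, and the lung groups of Capn3 overlapped as well. Capn3, Cpne7, Glb1l3 and Ipcef1 left it with the lens covariate. They also left it without the 2 lens-rich libraries, which kept only replicate 1 of WT-RA retina. With the sex covariate Cacna2d3, Capn3, Cpne7, Gm28438 and Ipcef1 left it.

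The VEGF, angiopoietin and endothelin list set out the pathway by role. Of 29 members tested, 4 were higher and 8 lower in lung and 15 higher and 0 lower in retina, 4 were higher in both and 3 were opposite, and the median log2 fold change was 0.04 in lung and 1.03 in retina, beside 0 over all genes in each. The difference was called for 15, all with lung below retina. In lung, the 4 higher members were the ligands Apln, Adm, Angpt2 and Pgf. Of the 8 lower members, 6 were receptors or parts of one: Aplnr, Cxcr4, Tek, the receptor of the angiopoietins, Calcrl and Ramp2, which together form the receptor of adrenomedullin, and Ednrb, an endothelin receptor. The others were Angpt1, the ligand that stabilises vessels through Tek, and Esm1. Tek was at 379, 319 and 274 CPM against 62.0, 54.3 and 59.4 in lung (-2.47 ± 0.12, edgeR adjusted p = 3.69e-09) and at 4.24, 3.74 and 4.03 against 5.0, 3.49 and 4.46 in retina (0.11 ± 0.17). Calcrl and Ramp2 fell by 2.54 ± 0.25 and 1.55 ± 0.12 in lung and had 0.19 ± 0.24 and 0.23 ± 0.15 in retina. For apelin, adrenomedullin and angiopoietin-2 the lung thus had higher ligand with lower receptor RNA, whereas Angpt1 and its receptor Tek were both lower.

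Vegfa, the main growth factor of endothelium, was at 787, 749.7 and 621 CPM against 604, 660.3 and 617 in lung (-0.20 ± 0.10, edgeR adjusted p = 0.123). In retina it was at 256, 234 and 246 CPM against 595, 613 and 548 (1.25 ± 0.13, edgeR adjusted p = 0.00118), and the difference was -1.47 ± 0.17 (edgeR adjusted p = 1.64e-06). Vegfa thus overlapped between the lung groups and separated fully in retina. The other retina-called members included the Notch ligand Dll4, the receptor Tie1, the guidance receptors Unc5b and Plxnd1, the pericyte-recruiting Pdgfb and the endothelin pair Edn1 and Ednra. Edn1 was at 30.2, 30.7 and 32.8 CPM against 50.6, 57.3 and 62.7 in lung (0.86 ± 0.23, under the 2.0-fold limit) and at 2.12, 2.59 and 2.61 against 4.19, 6.89 and 3.85 in retina (1.03 ± 0.23). Its retina call was lost without WT-O2 replicate 2 (0.72), WT-RA replicate 1 (0.94) or WT-RA replicate 2 (1.07). With the lens covariate 8 members of the list were called in retina, without the 2 lens-rich libraries 11 and with the sex covariate 13.

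In the HIF and glycolysis list, 5 of 35 members were higher in lung and 4 in retina, 2 of them (Adm and Egln3) in both, and none lower, with medians of 0.39 and 0.27. The difference was called for 7 members, 3 with lung above and 4 below. Slc2a1, the glucose transporter GLUT1, was at 23.5, 18.9 and 17.7 CPM against 42.2, 47.7 and 43.0 in lung (1.14 ± 0.11) and 0.10 ± 0.09 in retina.

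Genes of endothelial cells parted between the tissues as a group. Of 20 endothelial markers, 1 was higher and 6 lower in lung and 12 higher in retina, with medians of -0.50 and 1.13, and the difference was called for 16, all with lung below retina. Their summed level was 8283, 7686 and 7729 CPM in lung WT-RA and 6141, 5546 and 5791 in WT-O2. In retina it was 282, 244 and 278 against 544, 504 and 459.7. The groups did not overlap in either tissue. Ecscr, an endothelial surface regulator of migration, rose by 2.83 ± 0.27 in retina, from 3.52, 1.79 and 3.9 CPM to 27.0, 19.7 and 18.7, beside -0.26 ± 0.09 in lung (difference -3.12 ± 0.26, edgeR adjusted p = 2.1e-08). The junction proteins Pecam1 and Cdh5 had -0.36 ± 0.09 and -0.22 ± 0.11 in lung, neither called, and rose by 1.24 ± 0.15 and 1.52 ± 0.20 in retina. Erg, a transcription factor of endothelial identity, fell by 1.06 ± 0.09 in lung and rose by 1.06 ± 0.16 in retina, a retina call lost without WT-O2 replicate 1 (0.96) or WT-RA replicate 1 (0.99). In retina 8 members were called without the 2 lens-rich libraries, 8 with the lens covariate and 12 with sex. Among 15 pericyte and smooth muscle genes, 3 were higher and 1 lower in lung and 5 higher in retina (medians 0.30 and 0.98), where 3 were called without the 2 lens-rich libraries, 2 with the lens covariate and 4 with sex. Rgs5, a G-protein regulator of pericytes, was at 60.2, 50.6 and 67.1 CPM against 193, 167 and 146 in retina (1.51 ± 0.18) and had 0.42 ± 0.15 in lung.

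Among genes called in lung only with a mean of at least 1 CPM in each tissue, the largest differences from retina were increases of Gdf15, Inhba, Ano3, Bean1 and Acta1 and decreases of Kit, Crabp1, Acoxl, Slc26a10 and A2m. Gdf15, a stress cytokine and p53 target, was at 1.01, 1.45 and 1.65 CPM against 40.2, 55.1 and 118 in lung (5.69 ± 0.48) and 0.06 ± 0.28 in retina, a difference of 5.61 ± 0.48. Inhba, the activin A subunit, was at 1.75, 2.62 and 2.58 CPM against 165, 138 and 171 in lung (6.09 ± 0.20) and -0.04 ± 0.30 in retina. In retina, Gdf15 was at most 2.39 CPM and Inhba at most 1.8 CPM in any library. Ano3, an anoctamin of the membrane, was at 0.209, 0.0673 and 0.0344 CPM against 27.2, 22.7 and 21.5 in lung (7.80 ± 0.32), and Bean1 rose by 6.08 ± 0.49. Kit, a receptor tyrosine kinase present on lung capillary endothelium, fell from 247, 217 and 221 CPM to 19.8, 23.2 and 20.9 in lung (-3.42 ± 0.10, edgeR adjusted p = 4.53e-11) with 0.74 ± 0.26 in retina. Crabp1, a retinoic acid binding protein, fell from 34.2, 45.1 and 78.6 CPM to 0.511, 0.895 and 0.135 (-6.67 ± 0.52). Acoxl and Slc26a10 fell by 3.02 ± 0.18 and 3.51 ± 0.26, and A2m, the protease inhibitor alpha-2-macroglobulin, by 1.91 ± 0.30. In retina A2m had 2.17 ± 0.61 (edgeR adjusted p = 0.102) and was called without WT-RA replicate 3, at 2.94. Acta1, a muscle actin, was called higher in lung through WT-O2 replicate 2 at 5.02 CPM, while the other WT-O2 libraries were at 0.273 and 0.507.

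Targets of p53, which answers DNA damage, were higher in lung in 12 of 23 members tested and lower in 1, and higher in retina in 1. The difference was called for 12, 11 of them with lung above, and the medians were 1.15 and 0.11. Cdkn1a, the cell-cycle inhibitor p21, was at 91.3, 58.6 and 57.0 CPM against 787, 963 and 962 in lung (3.71 ± 0.26) and at 12.2, 12.3 and 11.8 against 21.7, 36 and 21.4 in retina (1.12 ± 0.25). It rose without overlap in both tissues and more in lung (difference 2.57 ± 0.36, edgeR adjusted p = 2.78e-05), with the retina call lost without WT-O2 replicate 2, WT-RA replicate 1 or WT-RA replicate 2, without the 2 lens-rich libraries and with either covariate. Zmat3 and Aen, p53-induced regulators of RNA and of apoptosis, rose by 2.26 ± 0.11 and 1.93 ± 0.10 in lung beside -0.15 ± 0.17 and 0.16 ± 0.18 in retina. Of 31 NRF2 and antioxidant genes, which answer oxidants, 12 were higher in lung and 0 in retina (medians 0.57 and -0.14), and 9 differences were called with lung above. In retina 10 of the 31 had an unadjusted p under 0.05 in edgeR, and DESeq2 also called 0. Srxn1, sulfiredoxin, was at 10.3, 10.5 and 11.2 CPM against 45.7, 50.9 and 64.7 in lung (2.33 ± 0.12) and at 72.4, 58.2 and 48.3 against 45.2, 49.1 and 51.0 in retina (-0.30 ± 0.16). Nqo1, a quinone reductase, rose by 2.04 ± 0.18 in lung and had -0.92 ± 0.34 in retina. Genes of the p53 and NRF2 lists were thus called mostly in lung, and Cdkn1a was the member called in retina. The tissues also differed in age, dose, length of exposure and delay, and the cause was not tested.

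Proliferation genes were called in retina. Of 42 cell cycle genes 0 were called in lung and 10 were higher in retina (medians 0.44 and 0.87), with 9 differences below and 2 above. In lung 26 of the 42 had an unadjusted p under 0.05 in edgeR without reaching the 2.0-fold limit, and DESeq2 also called 0. Mki67, the proliferation marker, was at 48.9, 60.4 and 70.3 CPM against 105, 63.7 and 75 in lung (0.44 ± 0.19, edgeR adjusted p = 0.0917) and at 0.08, 0.0381 and 0.343 against 2.69, 1.34 and 2.55 in retina (3.82 ± 0.71, edgeR adjusted p = 0.0199). The lung groups overlapped and the retina groups did not, though the retina level was low, and the call was lost with the lens covariate at 3.96. Birc5, a mitotic survivin, rose by 1.82 ± 0.41 in retina and had 0.34 ± 0.25 in lung, and its retina call was lost without WT-O2 replicate 1 (1.80) or 3 (1.55) or WT-RA replicate 1 (1.79) or 2 (1.62). The number of list members called in retina fell from 10 to 7 without the 2 lens-rich libraries, to 2 with the lens covariate and to 2 with sex. Promoters of the list held the CHR letters TTTGAA or TTCGAA in 56.8% and CCAAT in 81.1%. The shares were 14.3% and 37.4% among promoters of genes tested in both tissues, and 19.2% and 37.4% of all promoters.

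**Figure D4:**
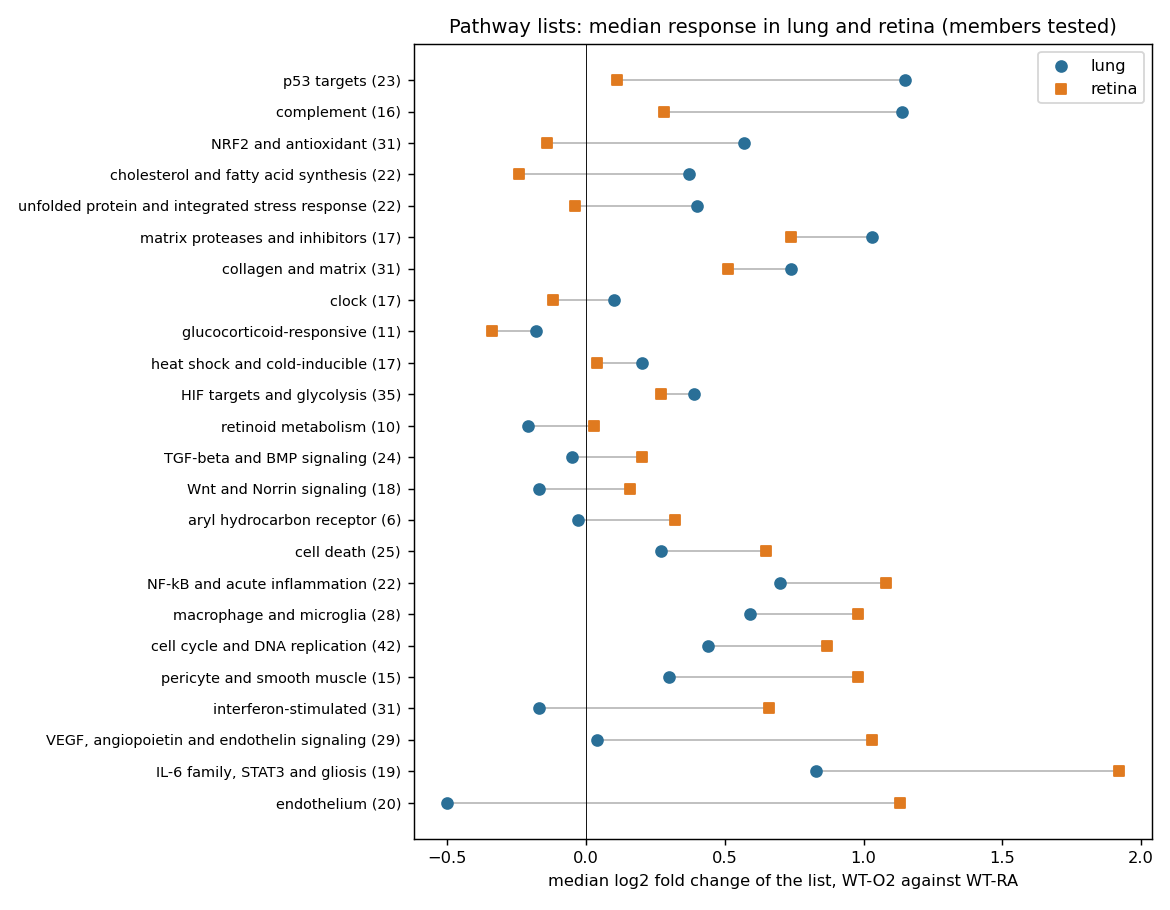
For each of the 24 pathway lists, the median log2 fold change (WT-O2 against WT-RA) of its members is drawn on the x axis as a circle for lung and a square for retina, with the number of members tested in brackets and a line joining the pair. The lung median lies farthest above that of retina for p53 targets (1.15 and 0.11) and farthest below it for endothelium (-0.50 and 1.13).

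The remaining genes called in retina only with the largest differences were Tnnt2, H2-Q2 and Exoc3l4, which were higher, and Rbm24, Ly6c1, Fam189a1, Gkn3 and Paqr5, which were lower. Tnnt2, a troponin known from heart muscle, was at 1.04, 1.64 and 1.76 CPM against 15.5, 19.6 and 24.3 in retina (3.74 ± 0.56) and -0.83 ± 0.26 in lung, where it was called without WT-RA replicate 3 (-1.11). H2-Q2, an MHC class I gene whose close relatives may share its reads, was at 0.32, 0.572 and 0.428 CPM against 4.66, 5.18 and 4.39 (3.41 ± 0.51), with the call lost under the lens covariate (2.62). Exoc3l4 rose by 3.67 ± 0.88, a call lost without any WT-O2 library or WT-RA replicate 2 (3.28 to 3.84). Among the lower genes, Rbm24, an RNA-binding protein, was at 6.56, 13.5 and 28.7 CPM in WT-RA against 3.12, 3.9 and 3.17 in WT-O2 (-2.26 ± 0.54). Its highest values were in the 2 lens-rich libraries, without which it had -0.93 and was not called, and it also lost the call without any WT-O2 library (-2.20 to -2.37), WT-RA replicate 2 (-2.37) or WT-RA replicate 3 (-1.57). Gkn3, a gastrokine, was at 2.28, 3.2 and 2.18 CPM against 0.308, 0.249 and 0.681 (-2.62 ± 0.41), and Ly6c1, a surface protein of endothelium and monocytes, at 87.3, 68.0 and 55.8 against 21.5, 13.8 and 36.7 (-1.55 ± 0.29). Fam189a1 fell by 1.25 ± 0.33 and Paqr5, a progestin receptor, by 1.56 ± 0.37. Fam189a1 kept its retina call without WT-RA replicate 3 and lost it without any other retina library (-1.08 to -1.37), and Paqr5 lost it without any WT-O2 library or WT-RA replicate 1 (-1.10 to -1.70).

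Members of the inflammation and gliosis lists were called higher in each tissue, in part the same ones. Of 19 genes of the IL-6, STAT3 and gliosis list, 8 were higher and 1 lower in lung and 10 were higher in retina. The 4 higher in both were Timp1, Lcn2, Serpina3n and Junb. Timp1 kept both calls in all 19 other settings, while Lcn2, Serpina3n and Junb lost a call under 8, 10 and 2 of them. Gfap, the filament of reactive astrocytes and Mueller glia, was at 12.2, 6.52 and 28.9 CPM against 82.0, 116 and 103 in retina (2.66 ± 0.52, edgeR adjusted p = 0.0318) and at most 0.777 CPM in any lung library. Stat3 itself rose by 1.20 ± 0.24 in retina, where the call was lost without WT-O2 replicate 2 (0.80), WT-RA replicate 1 (1.18) or WT-RA replicate 2 (1.17), and had 0.76 ± 0.09 in lung. Without the 2 lens-rich libraries 7 members of this list were called in retina, and with the lens covariate 5. In the NF-kB list of 22, 7 were higher in lung, among them the chemokine genes Ccl2, Ccl3, Ccl7, Ccl12 and Cxcl1, and 5 in retina. In the macrophage and microglia list of 28, 7 were higher in lung and 6 in retina, 5 of them in both. Spp1 and Gpnmb, made by activated macrophages, rose by 2.90 ± 0.21 and 2.54 ± 0.18 in lung, and had -0.50 ± 0.28 and -1.21 ± 0.65 in retina. With the lens covariate edgeR called 0 members of the NF-kB and macrophage lists in retina, where 8 of 22 and 14 of 28 had an unadjusted p under 0.05. Without the 2 lens-rich libraries 2 and 3 were called there, and with the sex covariate 1 and 4. Of 16 complement genes 9 were higher in lung and 2 in retina, or 1 in retina without the 2 lens-rich libraries or with the lens covariate, and with the sex covariate edgeR called 0 there, where 4 had an unadjusted p under 0.05. Of 31 interferon-stimulated genes 1 was higher and 3 lower in lung and 4 higher in retina, with 14 differences below and medians of -0.17 and 0.66, and with the lens covariate 0 were called in retina, where 7 had an unadjusted p under 0.05.

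Some matrix and protease genes were called higher in each tissue. Of 31 collagen and matrix genes 9 were higher and 1 lower in lung and 6 higher in retina, 2 of them (Col5a2 and Fn1) in both. Of 17 proteases and inhibitors 9 were higher in lung and 4 in retina, 3 of them (Timp1, Plau and Plaur) in both, and the retina count was 1 with the lens covariate and 1 with sex. In the TGF-beta and BMP list of 24, 4 were higher and 1 lower in lung and 4 higher in retina. The cell death list of 25 had 4 higher and 1 lower in lung and 4 higher in retina. With the lens covariate the retina count was 1 in each of these 2 lists, and with sex it was 3 and 2.

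The other pathway lists had few calls. Lung had 3 higher and 1 lower of 17 clock genes, 2 and 3 of 11 glucocorticoid-responsive genes, 3 and 0 of 22 unfolded protein and stress response genes, 1 and 0 of 17 heat shock genes, 1 and 2 of 10 retinoid genes, 3 and 3 of 18 Wnt and Norrin genes and 0 and 1 of 6 aryl hydrocarbon receptor genes. In retina 1 glucocorticoid-responsive and 1 stress response gene were higher. Of 22 cholesterol and fatty acid synthesis genes 0 were called in either tissue at the 2.0-fold limit, while 4 differences were called with lung above (medians 0.37 and -0.24). An unadjusted p under 0.05 was found in edgeR for 17 of the 22 in lung and 10 in retina, and DESeq2 also called 0 in each. Sqle, squalene epoxidase of cholesterol synthesis, had 0.88 ± 0.08 in lung and -0.15 ± 0.13 in retina, a difference of 1.01 ± 0.15.

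Erythroid and lymphocyte markers fell in lung, and the levels of neutrophil markers overlapped between its groups. The 21 erythroid genes summed to 15947, 16091 and 18360 CPM in lung WT-RA and 3049, 4278 and 3255 in WT-O2, and to 811 to 1189 against 1089 to 1658 in retina. Of 11 tested in both, 8 were lower in lung and 0 called in retina, with medians of -2.20 and 0.21 (in retina 2 had an unadjusted p under 0.05 in edgeR, and DESeq2 also called 0). Alas2, the first enzyme of haem synthesis in red cells, fell by 2.41 ± 0.52 in lung, from 195, 183 and 215 CPM to 35.6, 38.6 and 37.5. The lymphocyte genes summed to 181 to 196 CPM in lung WT-RA and 49.3 to 57.2 in WT-O2. Of 8 tested in both tissues, 6 were lower in lung. Cd79a, a chain of the B cell receptor, fell by 1.95 ± 0.21. The 11 neutrophil genes summed to 63.6 to 82.6 CPM in lung WT-RA and 65.0 to 77.5 in WT-O2. Of 6 tested in both tissues edgeR called 0 in lung, with 0 at an unadjusted p under 0.05, and DESeq2 called 1. By staining for elastase protein, the study counted more neutrophils in the airspaces of oxygen-exposed WT lungs. The part of the marker changes in the other lung values was not tested. In retina, photoreceptor markers summed to 71431 to 81618 CPM in WT-RA and 64483 to 73408 in WT-O2, which overlap. Inner retina markers summed to 2073 to 2806 CPM against 1776 to 1884, without overlap. Ganglion cell markers (1184 to 1637 against 978 to 1088) and Mueller glia markers (2843 to 3746 against 2090.2 to 2378) did not overlap either. As shares of total counts, without TMM factors, all these ranges overlapped.

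**Figure D5:**
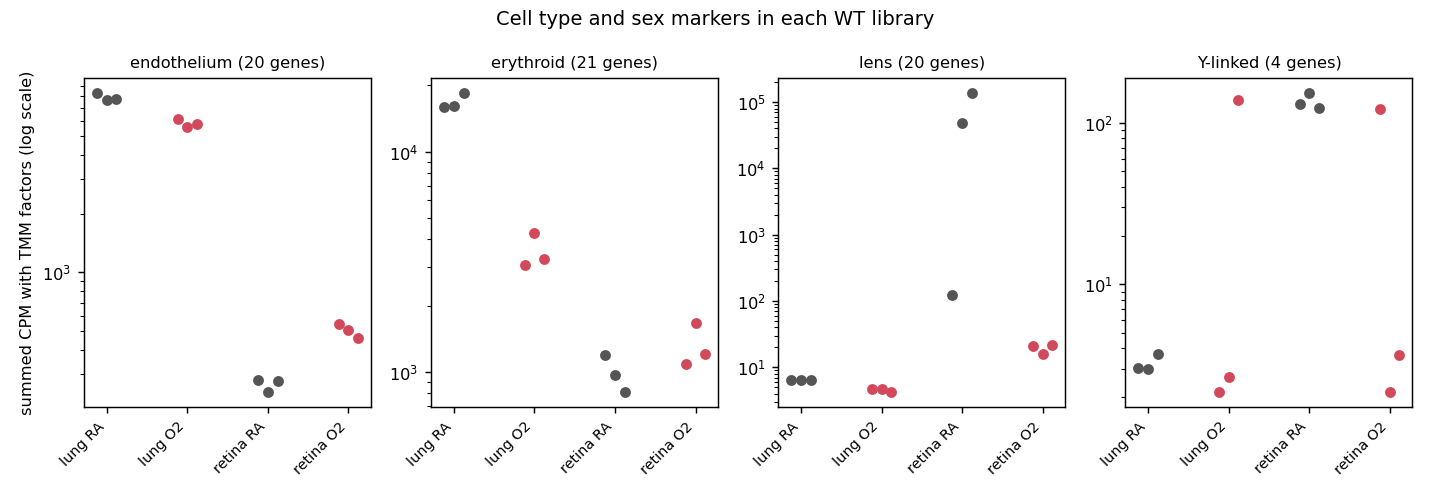
Points are single WT libraries, with the summed CPM of the endothelial, erythroid, lens and Y-linked genes on log10 axes that differ between panels, WT-RA in grey and WT-O2 in red. Endothelial and erythroid genes are lower in all 3 lung WT-O2 libraries than in WT-RA, and lens genes reach 135452 CPM in a retina WT-RA library.

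Of the genes the study followed by qRT-PCR, all but Slc4a1 and Edn2 were tested in both tissues. Apart from Gsdmd, the study took them from genes that changed in these RNA-seq data. Gsdmd, which encodes the pore-forming gasdermin D that the study deleted, was at 41.4, 42.3 and 40.6 CPM against 32.1, 36.4 and 34.8 in WT lung (-0.27 ± 0.10) and at 4.08, 0.419 and 2.7 against 5.7, 2.9 and 3.85 in WT retina (0.79 ± 0.62), neither called. Mif, a cytokine, rose by 1.54 ± 0.19 in lung and had 0.01 ± 0.15 in retina (difference 1.5 ± 0.25). Birc3, an inhibitor of apoptosis in the NF-kB pathway, had 0.08 ± 0.13 in lung and rose by 1.74 ± 0.30 in retina, lost as a call without the 2 lens-rich libraries (1.79). Pdgfrb, the pericyte receptor, had -0.75 ± 0.12 and 0.61 ± 0.16, with a called difference of -1.38 ± 0.20 (edgeR adjusted p = 2.43e-05). Pik3cg and Nlrc3 were called in neither tissue. By qRT-PCR the study reported that oxygen raised Gsdmd in WT lung and retina, Pik3cg in WT lung, and Nlrc3 and Pdgfrb in WT retina. None of these rises was called here. It also reported higher Mif in WT lung and Birc3 in WT retina, which were called here.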

How the data were processed

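Bulk RNA-seq of whole lung and whole retina was analysed from 2 gene-level tables of estimated counts that the authors deposited, one a tissue, with 4 groups of 3 mice each. As far as the methods and the submitters' processing notes say, reads were checked with FastQC, quantified against mouse transcripts with kallisto and summed to genes with tximport. The notes name mm10, while the methods name a later Ensembl mouse release, so the transcript models cannot be stated firmly. The counts were close to whole numbers (within 0.01) for 55.8% of nonzero values in lung and 2.2% in retina, so the tables may have been summarised with different settings, and each response was taken within its own table. Levels in CPM are compared across tables only in words.

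Estimated counts were rounded and tested with edgeR 4.0.16 in R 4.3.3 (TMM factors, low-count filter by group, robust quasi-likelihood fits). All 12 libraries of a tissue shared a fit, WT-O2 was set against WT-RA, and p-values were adjusted by Benjamini-Hochberg over all genes tested in that tissue. The SE of a log2 fold change was derived from the F statistic. The difference, lung minus retina, came from a fit over all 24 libraries. The scripts were tested on simulated data. The members, the 40 gene lists and the tests were chosen with earlier results of these data known. In classes called in both, the naming rule below took only genes whose groups did not overlap in either tissue. Genes named by rule were the 8 with the largest smaller fold change in each class called in both, the 5 with the largest difference in each class of 1 tissue (both with a mean of at least 1 CPM in each tissue), at most 4 a list by smallest p, and those of the study's qRT-PCR; 1 gene so chosen is not reported here. Others, such as Pgf, Egln3, Vegfa, Calcrl, Ramp2, Pecam1, Cdh5, Cdkn1a, Nqo1, Gfap, Col5a3, C1qa, C1qc, Cd68 and the members and genes listed by name alone, were picked after their values were seen. Alternatives were RLE factors, no filter, WT libraries only, DESeq2 1.42.0, limma 3.58.1 voom and separate fits for the difference, other thresholds, leaving out each WT library, and, after seeing the data, leaving out lens-rich libraries or adding lens level or sex as a covariate. The number of mice and the depth of the retina's low genes limit precision. Promoter windows came from RefSeq on GRCm38.p6.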

Additional observations from a re-analysis of the deposited data

Results flagged for a closer look

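The values here stood out because the lung and retina responses to oxygen differed, for single genes by the test of the difference itself. The lung response lay above that of retina in 750 genes and below it in 1329. Counted from the calls of each tissue, 31 genes were called in opposite directions. Single genes are those named by class, so other called differences, such as that of Adm, are left out. The limits given above for single genes, such as Acta1 and Timp1, apply here too. Values are lung minus retina on the log2 scale.

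Of the genes called in the same direction in both tissues, the lung rise of Timp1 was larger by 1.19, that of Apln smaller (-1.08) and the fall of Glb1l3 deeper (-3.62). Of the opposite genes, P2rx2 differed by 3.75, Tmem190 by 2.68, Lgi2 by 2.15 and Guca1a by 2.31. The differences of genes lower in lung and higher in retina were -6.52 for Gpihbp1, -5.93 for Esm1, -4.95 for Aplnr, -4.64 for Cxcr4, -3.45 for Gja4, -3.44 for Clec14a, -3.14 for Adora2a and -2.79 for Sox18.

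Among genes higher in lung only, Ano3 differed by 8.4, Bean1 by 6.59, Inhba by 6.11, Gdf15 by 5.61 and Acta1 by 5.35. Among genes lower in lung only, Crabp1 differed by -6.25, Acoxl by -4.21, Kit by -4.19, Slc26a10 by -4.13 and A2m by -4.1. Among genes higher in retina only, Tnnt2 differed by -4.6, H2-Q2 and Exoc3l4 by -3.68, Mki67 by -3.42 and Ecscr by -3.12. Among genes lower in retina only, Rbm24 differed by 2.8, Ly6c1 by 2.16, Fam189a1 by 1.98, Gkn3 by 1.95 and Paqr5 by 1.92.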

How the results depend on the processing

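Over all genes tested in each tissue, 1952 were called in lung and 391 in retina, 61 in the same and 31 in opposite directions in both, and 2079 differences. DESeq2 called 647 in retina and 51 opposite, and a 1.5-fold limit gave 3923 in lung, 707 in retina, 159 same, 107 opposite and 3713 differences. An adjusted p under 0.05 left 40 same. Of the alternatives chosen after seeing the data, leaving out the 2 lens-rich WT-RA retinas left 34 same, the lens covariate 182 in retina, 25 same and 15 opposite, and the sex covariate 34 same. Leaving out 1 library gave 196 (without retina WT-RA replicate 2) to 504 (without replicate 3) in retina, 29 to 71 same and 17 to 38 opposite. Counts fell over 1.5 times also without retina WT-O2 replicate 1 (237, 40 and 19), replicate 2 (219 in retina, 38 same), replicate 3 (39 same) and WT-RA replicate 1 (225, 35 and 19). Lung calls stayed at 1865 to 2069 and differences at 1906 to 2289. The difference changed sign with the lens covariate for Hspb1 (-0.39), Crybb3 (-2.64), Bfsp1 (-1.06) and Lrat (-2.48), and with the sex covariate for Ddx3y (-1.05). The cause was not tested. Of the other values for named genes, 9241 kept direction and side of the threshold, 405 lost a call and 214 gained one. RLE factors, no filter, WT libraries only, limma voom and separate fits moved no count by over 1.5 times. With WT libraries only, however, 37 of the 54 genes higher in both kept their class. So did 19 of the 27 lower in lung and higher in retina. In the reverse class 2 of 4 kept it, and of those lower in both 4 of 7. Aplnr, Cacna2d3, Gpihbp1, Guca1a, Lcn2, Plau, Serpina3n and Trem2 were among those that left. No paired analysis was possible because lung and retina came from different mice and the labels give no shared replicate numbers. Retina precision is limited by 3 mice a group, of which 2 WT-RA libraries were lens-rich, and by genes under 1 CPM.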
